A study of Mus musculus with 16 samples.

Results

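The 41 genes described here encode lysosomal hydrolases, the proteins that help them act on lipids, and proteins of the lysosomal membrane. They were taken by symbol from a table of 16380 genes, in which all 41 were listed, and fall into 9 cysteine proteases, 3 aspartic and serine proteases, 12 glycosidases, 5 sulfatases, 8 proteins of lipid breakdown and cholesterol transport, and 4 membrane proteins. Lung RNA was sequenced from mice of C57BL/6 background in 16 libraries, with 4 in each of 4 groups. WT-Sal and WT-Bleo are wildtype mice after saline and after bleomycin, and KO-Sal and KO-Bleo are the corresponding IL-31RA knockout mice. The knockout mice lack part of Il31ra, which encodes the receptor chain that binds the cytokine IL-31, and their wildtype controls were littermates. Bleomycin, a drug that breaks DNA and scars the lung, was given as intradermal injections (dose 6 U/kg) 5 days a week over 4 weeks, control mice received saline the same way, and lungs were taken on day 28. The study used mice of both sexes aged 10 to 18 weeks, and the sources used here do not give the sex of a library or state that the libraries are different mice, so the p-values measure the spread between libraries.

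Lysosomes are acidic organelles in which hydrolases break down proteins, glycans, sulfated glycosaminoglycans and lipids that reach them by phagocytosis, endocytosis or autophagy. The transcription factors TFEB, TFE3 and MITF bind an element called CLEAR, which was first described in promoters of lysosomal genes. In the lung, macrophages are rich in lysosomes, alveolar type 2 cells keep surfactant in related organelles called lamellar bodies, and several cathepsins can also cut collagen and elastin outside cells.

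The promoters of 36 of the 41 genes were matched in RefSeq (GRCm38.p6) as the 250 bases before and 50 bases after a gene start, and Ctsb, Ctsh, Galns, Asah1 and Npc1 had no entry. Both strands were searched for the CLEAR core, spelled GTCACGTG (or CACGTGAC when it lies on the opposite strand). The search also covered the E-box, CACGTG, which reads alike on both strands and is contained in the CLEAR core. A motif that MITF binds, the M-box, was searched as TCATGTG and, for the opposite strand, in reverse complement as CACATGA. The E-box was present in 13 of the 36 promoters (36.1%) and in 10.7% of 12871 gene promoters in the table. The CLEAR core was present in 10 (27.8%, against 4.13% of all) and the M-box in 6 (16.7%, against 2.87% of all). A match is only a run of letters, and since the CLEAR element was defined on promoters of lysosomal genes, its share among these genes is a description. Each stretch below reads 5′ to 3′ on the strand of its gene, with matched motifs in capitals. The CLEAR core is held by Ctsd, Lgmn and Gla, which bleomycin more than doubled, and by Glb1 and Lamp1, which rose by less. It is also held by Arsa, which did not detectably change. For contrast, the promoters of Ctss and Ctsk are shown, a pair of the most raised genes whose printed 100 bases hold none of the motifs.
Lamp1, chr8:13159061-13159160, plus strand, the 100 bases before the start: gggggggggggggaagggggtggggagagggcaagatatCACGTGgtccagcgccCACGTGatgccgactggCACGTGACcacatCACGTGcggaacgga
Glb1, chr9:114400978-114401075, plus strand, from 100 bases before the start: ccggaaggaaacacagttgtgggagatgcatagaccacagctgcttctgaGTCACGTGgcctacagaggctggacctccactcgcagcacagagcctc
Ctsd, chr7:142388039-142388077, minus strand, from 250 bases before the start: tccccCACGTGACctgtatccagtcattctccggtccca
Gla, chrX:134601156-134601255, minus strand, from 250 bases before the start: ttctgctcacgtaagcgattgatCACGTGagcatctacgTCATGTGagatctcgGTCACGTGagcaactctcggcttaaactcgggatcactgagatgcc
Lgmn, chr12:102439093-102439192, minus strand, the 100 bases before a start inside the annotated gene: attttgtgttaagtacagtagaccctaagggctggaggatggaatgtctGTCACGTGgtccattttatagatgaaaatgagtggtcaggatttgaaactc
Arsa, chr15:89477426-89477524, minus strand, from 100 bases before the start: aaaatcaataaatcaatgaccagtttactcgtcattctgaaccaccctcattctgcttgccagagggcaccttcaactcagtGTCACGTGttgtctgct
Ctss, chr3:95526686-95526785, plus strand, the 100 bases before the start: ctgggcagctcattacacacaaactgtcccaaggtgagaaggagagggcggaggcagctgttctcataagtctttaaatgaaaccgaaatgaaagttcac
Ctsk, chr3:95499110-95499209, plus strand, the 100 bases before the start: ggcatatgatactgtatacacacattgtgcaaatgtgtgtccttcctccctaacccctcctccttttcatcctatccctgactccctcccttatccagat
Lamp1 held 4 E-boxes, the one at -28 from the start being part of a CLEAR core, and Ctsd held CLEAR cores at -245 and -98, the latter outside the printed stretch. Ctsk and Ctss are neighbours on chromosome 3 (95499210 to 95509387 and 95526786 to 95556405). Outside the printed bases, Ctss held an M-box that starts at +19.

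Values are RPKM, reads per kilobase of gene and per unit of library depth, and changes are log2 fold changes of RPKM + 1, which understate the change of genes with low values. Total reads ranged from 7790575 to 32153698 in 14 libraries, whereas WT-Bleo replicate 6 reached 604134 and KO-Bleo replicate 15 reached 1234594. In the 14 deeper libraries each of the 41 genes had 98 to 81220 reads. Il31ra itself had 5 to 17 reads per WT-Sal library, 0 to 13 per WT-Bleo library, 2 to 3 per KO-Sal library and 2 to 9 per KO-Bleo library, too few to check the genotype under bleomycin, and a value over the whole gene does not isolate the deleted part.

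Bleomycin raised 30 of the 41 genes in wildtype lungs at an adjusted p under 0.05 (18.6% of all genes were called higher) and lowered 1, Ids (12.3% of all genes were called lower). Cathepsins S, K, D and B and legumain rose most, most glycosidases rose by less than a doubling of their level, and 4 of the 5 sulfatases were not called higher. The median change was 0.59, against 0.013 over all genes, and 38 of the 41 values were above 0. Every WT-Bleo library was above every WT-Sal library for 28 genes (19.7% of all genes) and below for 1 (14.4%). At the study's cut-offs, taken here as p under 0.05 with no adjustment and a change of 1.5-fold or more, 21 rose (6.94% of all genes) and 0 fell (4.18%). Together the 41 genes took 0.658 to 0.708% of the summed RPKM of a WT-Sal library and 1.37 to 1.5% of a WT-Bleo library.

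**Figure D1:**
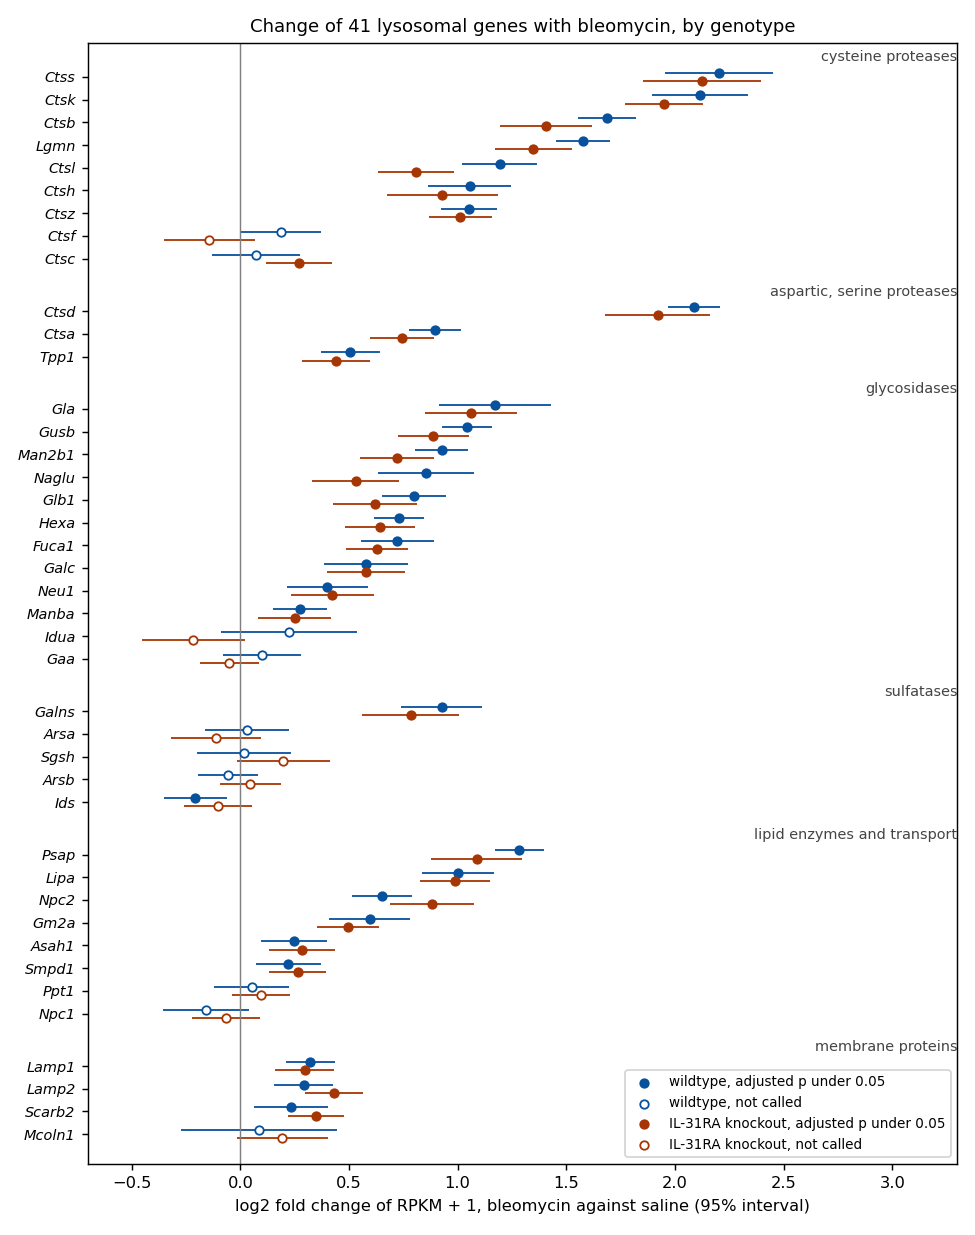
Change of each of the 41 genes with bleomycin, in wildtype lungs (blue) and IL-31RA knockout lungs (brown), as the log2 fold change of RPKM + 1 with its 95% interval, grouped by role. Filled circles passed an adjusted p of 0.05: 30 higher and 1 lower in wildtype lungs, and 31 higher in knockout lungs.

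Among the 9 cysteine proteases, 7 rose in wildtype lungs, and 4 of the 6 largest increases of all 41 genes were theirs. Ctss encodes cathepsin S, which trims the invariant chain of MHC class II in antigen-presenting cells and cuts elastin. Its level was 169, 129.7, 162 and 127 RPKM in WT-Sal and 703, 608, 764 and 636 RPKM in WT-Bleo (log2 fold change 2.20, SE 0.11, adjusted p = 1.39e-06), so that the lowest bleomycin library stood far above the highest saline library. Ctsk, the collagen-degrading cathepsin K best known from osteoclasts, read 16.1, 14.1, 17.3 and 13.4 RPKM in WT-Sal and 61.4, 80.5, 67.97 and 67.3 RPKM in WT-Bleo (log2 fold change 2.12, SE 0.10, adjusted p = 9.29e-07). Ctsb, an abundant endopeptidase and carboxypeptidase, read 89.02, 86.8, 95.1 and 87.3 RPKM in WT-Sal against 284, 316, 288 and 274 RPKM in WT-Bleo (log2 fold change 1.69, SE 0.060, adjusted p = 2.08e-07). For Lgmn, the asparaginyl endopeptidase legumain that processes other cathepsins, the levels were 48.4, 53.1, 50.7 and 46.1 RPKM and 156, 147, 148 and 149 RPKM (log2 fold change 1.58, SE 0.056, adjusted p = 2.08e-07). All 4 were thus separated between the groups, with the WT-Bleo libraries within a narrow band for Lgmn and a wider one for Ctsk, whose highest value came from the shallow replicate 6.

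The other cysteine proteases rose less or not detectably. Ctsl, cathepsin L, went from 61.1 ± 2.87 RPKM (SD, n = 4) to 142 ± 15.4 RPKM (SD, n = 4) (log2 fold change 1.19, SE 0.077, adjusted p = 6.23e-06). Ctsh, an aminopeptidase that alveolar type 2 cells use to process surfactant protein, went from 194 ± 18.9 to 404 ± 36.9 RPKM (log2 fold change 1.055, SE 0.086, adjusted p = 2.34e-05), and Ctsz, a carboxypeptidase, from 74.04 ± 4.40 to 155 ± 6.17 RPKM (log2 fold change 1.05, SE 0.058, adjusted p = 2.35e-06). Hence 3 further cathepsins about doubled. Ctsc, the dipeptidyl peptidase that activates granule serine proteases, was at 41.5 ± 2.98 RPKM in WT-Sal and 43.8 ± 5.42 RPKM in WT-Bleo (log2 fold change 0.072, SE 0.090, adjusted p = 0.589). Ctsf, cathepsin F, read 8.51, 9.79, 9.10 and 9.73 RPKM in WT-Sal and 10.9, 11.7, 9.34 and 10.9 RPKM in WT-Bleo, with overlapping groups (log2 fold change 0.19, SE 0.082, adjusted p = 0.116).

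All 3 aspartic and serine proteases rose, led by cathepsin D. Ctsd, the main aspartic protease of lysosomes, read 292, 280.4, 316 and 289 RPKM in WT-Sal and 1236, 1262, 1292 and 1229 RPKM in WT-Bleo, a 4.25-fold rise on the RPKM + 1 scale with the smallest p of the 41 genes (log2 fold change 2.09, SE 0.054, adjusted p = 2.85e-08). Its saline libraries and its bleomycin libraries each lay close together. In WT-Sal the gene with the highest mean level was Lamp1 (333 RPKM), and in WT-Bleo it was Ctsd (1255 RPKM). Ctsa, which protects β-galactosidase and neuraminidase besides its own carboxypeptidase activity, rose from 30.7 ± 0.413 to 58.1 ± 3.07 RPKM (log2 fold change 0.90, SE 0.053, adjusted p = 3.52e-06), and Tpp1, a tripeptidyl peptidase lost in a childhood neurodegenerative disease, from 38.3 ± 2.25 to 54.7 ± 2.76 RPKM (log2 fold change 0.51, SE 0.061, adjusted p = 0.000249). The change of Ctss was 0.087 above that of Ctsk, and that of Ctsk was 0.027 above that of Ctsd. Each of these steps between neighbours was less than the SE of either gene. Ctsd stood 0.40 above Ctsb, the largest step between neighbours once the genes were ranked by change. That step was 5.01 times an SE that treats the 2 genes as independent, although both were measured in the same libraries.

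**Figure D2:**
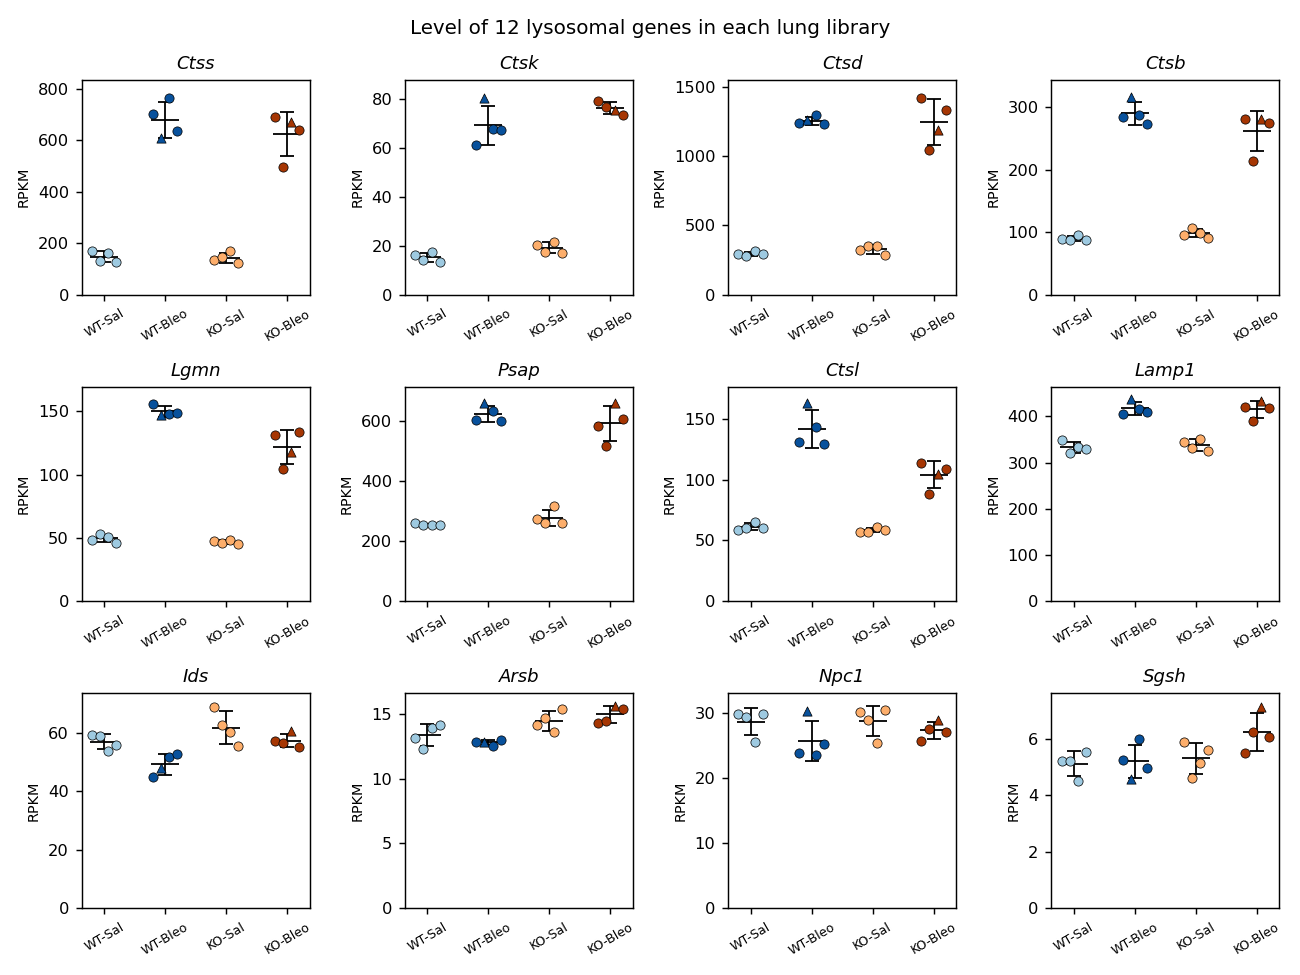
RPKM of 12 of the genes in each lung library, by group, with the mean and SD of 4 libraries; triangles mark the shallow replicates 6 and 15, and every axis starts at 0. Saline and bleomycin libraries are separated in both genotypes for Ctss, Ctsk, Ctsd, Ctsb, Lgmn, Psap, Ctsl and Lamp1, whereas Ids (WT-Sal 53.9 to 59.1 RPKM, WT-Bleo 44.7 to 52.6 RPKM) is the one gene called lower, in wildtype lungs alone.

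Of the 12 glycosidases, which remove sugars from glycoproteins, glycolipids and glycosaminoglycans, 10 rose in wildtype lungs, with a median of 0.73 over the 12. Gla, the α-galactosidase deficient in Fabry disease, went from 5.11 ± 0.670 RPKM to 12.8 ± 1.85 RPKM (SD, n = 4) (log2 fold change 1.17, SE 0.12, adjusted p = 6.63e-05), and Gusb, β-glucuronidase, from 24.7 ± 0.418 to 51.95 ± 2.25 RPKM (log2 fold change 1.04, SE 0.051, adjusted p = 1.08e-06). These were the steepest of the group. Man2b1, an α-mannosidase, rose by 0.93 on the log2 scale (from 22.9 ± 0.638 to 44.5 ± 2.26 RPKM), Naglu, which acts on heparan sulfate, by 0.85 (from 6.54 ± 0.382 to 12.7 ± 1.77 RPKM), and Glb1, β-galactosidase, by 0.80 (from 7.87 ± 0.363 to 14.4 ± 0.736 RPKM). Hexa, the α subunit of β-hexosaminidase, rose by 0.73 (from 47.01 ± 1.83 to 78.6 ± 2.96 RPKM) and Fuca1, an α-fucosidase, by 0.72 (from 27.4 ± 1.81 to 46 ± 4.17 RPKM). Galc, which degrades galactosylceramide, rose by 0.58 (from 8.36 ± 0.674 to 12.99 ± 1.26 RPKM), Neu1, a sialidase, by 0.40 (from 8.04 ± 0.349 to 10.97 ± 1.14 RPKM) and Manba, a β-mannosidase, by 0.27 (from 12.3 ± 0.437 to 15.04 ± 0.233 RPKM). The adjusted p of these 8 lay between 3.52e-06 (Man2b1) and 0.0052 (Neu1).

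Gaa and Idua were the glycosidases that did not pass the test. Gaa, the acid α-glucosidase that breaks down glycogen, read 19.6, 21.4, 18.1 and 23.2 RPKM in WT-Sal and 22.8, 22.4, 20.5 and 22.4 RPKM in WT-Bleo (log2 fold change 0.10, SE 0.080, adjusted p = 0.385). Idua, which acts on dermatan and heparan sulfate, had the lowest level of the 41 in WT-Sal and read 3.62, 4.79, 4.12 and 5.04 RPKM there and 4.96, 7.10, 4.70 and 4.58 RPKM in WT-Bleo (log2 fold change 0.22, SE 0.14, adjusted p = 0.265). The groups overlapped for both genes, and the high Idua value of 7.10 RPKM came from the shallow replicate 6, where it rested on 19 reads.

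The sulfatases, which strip sulfate from glycosaminoglycans and sulfolipids, had a median change of 0.016, and 1 of the 5 was called higher and 1 lower. Galns, which acts on keratan sulfate, was the one that rose, from 4.99 ± 0.574 to 10.4 ± 0.373 RPKM (log2 fold change 0.93, SE 0.083, adjusted p = 4.02e-05). Ids, iduronate 2-sulfatase, read 59.1, 59.02, 53.9 and 55.6 RPKM in WT-Sal and 44.7, 47.9, 51.5 and 52.6 RPKM in WT-Bleo, with every bleomycin library below every saline library (log2 fold change -0.21, SE 0.065, adjusted p = 0.0352). That call was lost without WT-Sal replicate 1, 2 or 4 or WT-Bleo replicate 5 (adjusted p = 0.0895, 0.0971, 0.0638 and 0.085). Arsb, which acts on dermatan and chondroitin sulfate, read 13.2, 12.3, 13.9 and 14.1 RPKM in WT-Sal and 12.8, 12.9, 12.6 and 13 RPKM in WT-Bleo (log2 fold change -0.057, SE 0.062, adjusted p = 0.531). Sgsh, heparan sulfamidase, read 5.22, 5.23, 4.49 and 5.54 RPKM and 5.25, 4.59, 5.98 and 4.98 RPKM (log2 fold change 0.016, SE 0.10, adjusted p = 0.917), and Arsa, which acts on sulfatide, 10.45 ± 0.394 and 10.8 ± 1.37 RPKM (log2 fold change 0.031, SE 0.086, adjusted p = 0.819). For these 3 genes the groups overlapped and the 95% intervals, -0.20 to 0.082, -0.20 to 0.23 and -0.16 to 0.22, held no change as large as 1.5-fold.

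Of the 8 genes of lipid breakdown and cholesterol transport, 6 rose. Psap encodes prosaposin, the precursor of the saposins that present sphingolipids to their hydrolases. It read 260.3, 253, 255 and 256 RPKM in WT-Sal and 607, 661, 634 and 600.0 RPKM in WT-Bleo, the largest rise of this role (log2 fold change 1.28, SE 0.050, adjusted p = 3.61e-07). Lipa, acid lipase, rose from 38.2 ± 1.85 to 77.8 ± 7.42 RPKM (log2 fold change 1.003, SE 0.074, adjusted p = 1.38e-05), Npc2, a soluble carrier of cholesterol, from 281 ± 21.1 to 441 ± 8.04 RPKM (log2 fold change 0.65, SE 0.062, adjusted p = 5.31e-05), and Gm2a, the activator for GM2 ganglioside, from 25.1 ± 2.77 to 38.3 ± 2.40 RPKM (log2 fold change 0.59, SE 0.082, adjusted p = 0.000556). These were separated between the groups. Acid ceramidase (Asah1) and acid sphingomyelinase (Smpd1) rose little. Asah1 went from 116 ± 8.72 to 138 ± 7.41 RPKM with separate groups (log2 fold change 0.25, SE 0.068, adjusted p = 0.0201). Smpd1 went from 32.9 ± 1.92 to 38.6 ± 2.63 RPKM with overlapping groups (log2 fold change 0.22, SE 0.066, adjusted p = 0.0306). Leaving out 1 library took the adjusted p of Asah1 to at most 0.0607 (calls lost without WT-Sal replicate 2 or WT-Bleo replicate 7) and that of Smpd1 to at most 0.0903 (calls lost without WT-Sal replicate 1, 2 or 4 or WT-Bleo replicate 5, 7 or 8).

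Ppt1 and Npc1 did not pass the test. Ppt1, a thioesterase that removes palmitate from proteins, was at 45.7 ± 2.84 RPKM in WT-Sal and 47.5 ± 4.65 RPKM in WT-Bleo (log2 fold change 0.053, SE 0.077, adjusted p = 0.646). Npc1, the membrane protein that takes cholesterol from Npc2, read 29.8, 29.4, 25.5 and 29.8 RPKM in WT-Sal and 23.8, 30.2, 23.5 and 25.1 RPKM in WT-Bleo (log2 fold change -0.16, SE 0.088, adjusted p = 0.215). Its value in the shallow replicate 6 was the highest of either group, and without that library Npc1 was called lower (-0.24 on the log2 scale, adjusted p = 0.0177). Npc1 and Npc2, which act in sequence, thus had estimates of opposite sign in wildtype lungs.

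The 4 membrane proteins changed least of the roles apart from the sulfatases, although 3 of them rose. Lamp1, a heavily glycosylated protein that lines the membrane, rose from 333 ± 11.5 to 417 ± 13.8 RPKM (log2 fold change 0.32, SE 0.051, adjusted p = 0.00115), and Lamp2, which also takes part in autophagy, from 105 ± 7.35 to 129 ± 4.50 RPKM (log2 fold change 0.29, SE 0.061, adjusted p = 0.00544). Scarb2, the receptor that carries β-glucocerebrosidase to lysosomes, went from 122 ± 12.8 to 144 ± 7.09 RPKM with overlapping groups (log2 fold change 0.23, SE 0.076, adjusted p = 0.0409), and its call was lost without any 1 of 7 libraries, all but WT-Sal replicate 1 (adjusted p at most 0.114). Mcoln1, a calcium channel of the membrane, was at 13.3 ± 2.14 and 14.3 ± 3.01 RPKM (log2 fold change 0.087, SE 0.16, adjusted p = 0.724). Within the summed RPKM of the 41 genes, membrane proteins made up 21% on average in WT-Sal and 12% in WT-Bleo, sulfatases 3.33% and 1.51%, and cysteine proteases 24.9% and 33.1%. The share of aspartic and serine proteases went from 13.3% to 23.3%. In each of these 4 roles the ranges of the saline and bleomycin libraries did not overlap. The same held for glycosidases (6.82 to 7.46% in WT-Sal and 5.48 to 5.69% in WT-Bleo), most of which rose. It also held for the genes of lipid breakdown and cholesterol transport (29.6 to 30.8% and 24.1 to 24.8%).

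In IL-31RA knockout lungs bleomycin raised 31 of the 41 genes (13.2% of all genes were called higher) and lowered 0 (10.4%); the number with an unadjusted p under 0.05 and a lower level was also 0 (18.1% of all genes), as was the number that limma-voom called lower. The median change was 0.53, against -0.011 over all genes. The KO-Bleo libraries lay above every KO-Sal library for 31 genes (15.3% of all genes) and below for 1 (12.8%), Idua. At the study's own cut-offs 19 rose (4.83% of all genes) and 0 fell (2.62%). The summed share of the 41 genes was 0.656 to 0.682% for KO-Sal libraries and 1.24 to 1.43% for KO-Bleo libraries. The 4 genes with the smallest p were Ctsk, Ctsd, Ctss and Lgmn.

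Ctsk read 20.4, 17.5, 21.7 and 16.97 RPKM in KO-Sal and 79.5, 76.8, 75.7 and 73.8 RPKM in KO-Bleo (log2 fold change 1.95, SE 0.080, adjusted p = 1.25e-06), with the bleomycin libraries closer together than in wildtype lungs. Ctsd read 324, 353, 348 and 284 RPKM and 1419, 1042, 1188 and 1333 RPKM (log2 fold change 1.92, SE 0.11, adjusted p = 5.16e-06). For Ctss the levels were 135, 145, 167 and 121 RPKM and 689.7, 498, 672 and 639 RPKM (log2 fold change 2.12, SE 0.12, adjusted p = 5.73e-06). All 3 were again separated between treatments, and the lowest KO-Bleo value of Ctsd and of Ctss came from replicate 14. Lgmn rose from 47.9, 46.4, 48.7 and 45.01 RPKM in KO-Sal to 131, 105, 118 and 134 RPKM in KO-Bleo (log2 fold change 1.35, SE 0.080, adjusted p = 6.8e-06).

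The same 30 genes were called higher in both genotypes, Ids was called (lower) in wildtype lungs alone and Ctsc (higher) in knockout lungs alone. For Ids the difference between these changes was not called (adjusted p = 0.688). Called in neither were Ctsf, Gaa, Idua, Arsa, Arsb, Sgsh, Ppt1, Npc1 and Mcoln1. Ctsc went from 39.2 ± 3.05 to 47.4 ± 2.71 RPKM in knockout lungs (log2 fold change 0.27, SE 0.069, adjusted p = 0.0184), a call lost without KO-Sal replicate 12 or KO-Bleo replicate 13 (adjusted p at most 0.052), and here too the difference between genotypes was not called (adjusted p = 0.53). Manba rose in knockout lungs (log2 fold change 0.25, SE 0.075, adjusted p = 0.0364) but not without KO-Sal replicate 9, 10 or 12 or KO-Bleo replicate 13, 14 or 16 (adjusted p at most 0.093). Over the 41 genes the changes in the 2 genotypes, which share no libraries, correlated with Pearson's r = 0.969 and Spearman's rho = 0.956, given as a description since the genes of a library share its depth and cells. The log2 fold change was lower in knockout than in wildtype lungs for 27 of the 41 genes and for 23 of the 30 called in both. This count is a description, since the genes share libraries and the median difference of changes over all genes was also below 0 (-0.024). The share of all genes with a lower change in knockout lungs is not given here. KO-Bleo replicate 14 was the lowest KO-Bleo library for 25 of the 30 called in both, and the count without that library is not given here. The difference of changes was called for 0 of the 41.

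By role, 8 of 9 cysteine proteases rose in knockout lungs (median 1.01), all 3 aspartic and serine proteases (0.74), 10 of 12 glycosidases (0.60), 1 of 5 sulfatases (0.046), 6 of 8 lipid genes (0.39) and 3 of 4 membrane proteins. Ctsb rose by 1.41, Ctsl by 0.81, Ctsh by 0.93, Ctsz by 1.01, Ctsa by 0.74 and Tpp1 by 0.44. Among glycosidases the rises ran from 0.25 (Manba) through 0.42 (Neu1), 0.53 (Naglu), 0.58 (Galc), 0.62 (Glb1), 0.63 (Fuca1), 0.64 (Hexa), 0.72 (Man2b1) and 0.89 (Gusb) to 1.060 (Gla). The order of the roles was therefore the one seen in wildtype lungs, with sulfatases last. Galns rose by 0.78, Psap by 1.09, Lipa by 0.99, Npc2 by 0.88, Gm2a by 0.50, Asah1 by 0.28, Smpd1 by 0.26, Lamp1 by 0.30, Lamp2 by 0.43 and Scarb2 by 0.35. Estimates for the genes that did not pass were -0.10 (Ids), 0.046 (Arsb), -0.11 (Arsa), 0.20 (Sgsh), -0.051 (Gaa), -0.22 (Idua), -0.14 (Ctsf), 0.093 (Ppt1), -0.067 (Npc1) and 0.19 (Mcoln1).

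Between genotypes under bleomycin (KO-Bleo against WT-Bleo), 0 of the 41 genes were called by limma (0.214% of all genes were called in either direction). At an unadjusted p under 0.05 there were 5 (11.1% of all genes): Ctsl, Lgmn and Ctsh lower and Ids and Arsb higher in knockout lungs, and for the same 5 the groups did not overlap (4.76% of all genes lower, 3.72% higher). Ctsl read 131, 163, 143 and 129 RPKM in WT-Bleo and 114, 88.3, 104 and 109 RPKM in KO-Bleo (log2 fold change -0.44, SE 0.10, adjusted p = 0.118), with the highest knockout library below the lowest wildtype library. Lgmn was at 156, 147, 148 and 149 RPKM in WT-Bleo and 131, 105, 118 and 134 RPKM in KO-Bleo (log2 fold change -0.30, SE 0.079, adjusted p = 0.177). Both were called lower by limma-voom on whole reads (adjusted p = 0.00995 for Ctsl and 0.0314 for Lgmn) and when all 16 libraries shared 1 spread (0.0104 and 0.0363), and Ctsl also with library quality weights (0.0318). Leaving out single libraries called neither.

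Ctsh, whose groups were also separate under bleomycin, read 414, 452, 382 and 369 RPKM in WT-Bleo and 367, 263, 291 and 336 RPKM in KO-Bleo (log2 fold change -0.37, SE 0.11, adjusted p = 0.235). Arsb went the other way, with 12.8, 12.9, 12.6 and 13 RPKM in WT-Bleo and 14.3, 14.5, 15.6 and 15.4 RPKM in KO-Bleo (log2 fold change 0.21, SE 0.061, adjusted p = 0.235). Ids read 44.7, 47.9, 51.5 and 52.6 RPKM in WT-Bleo and 57.2, 56.5, 60.4 and 55.1 RPKM in KO-Bleo (log2 fold change 0.22, SE 0.065, adjusted p = 0.238). None of the 5 passed the adjusted threshold in this fit. Over the 41 genes the median difference was -0.012 (0.0056 over all genes). For 39 of them the 95% interval of the difference lay within 1.5-fold in either direction on the RPKM + 1 scale. That scale understates the differences of low genes such as Idua. Ctsl and Arsb lie on chromosome 13 as Il31ra does, 48.2 and 18.6 megabases from it.

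**Figure D3:**
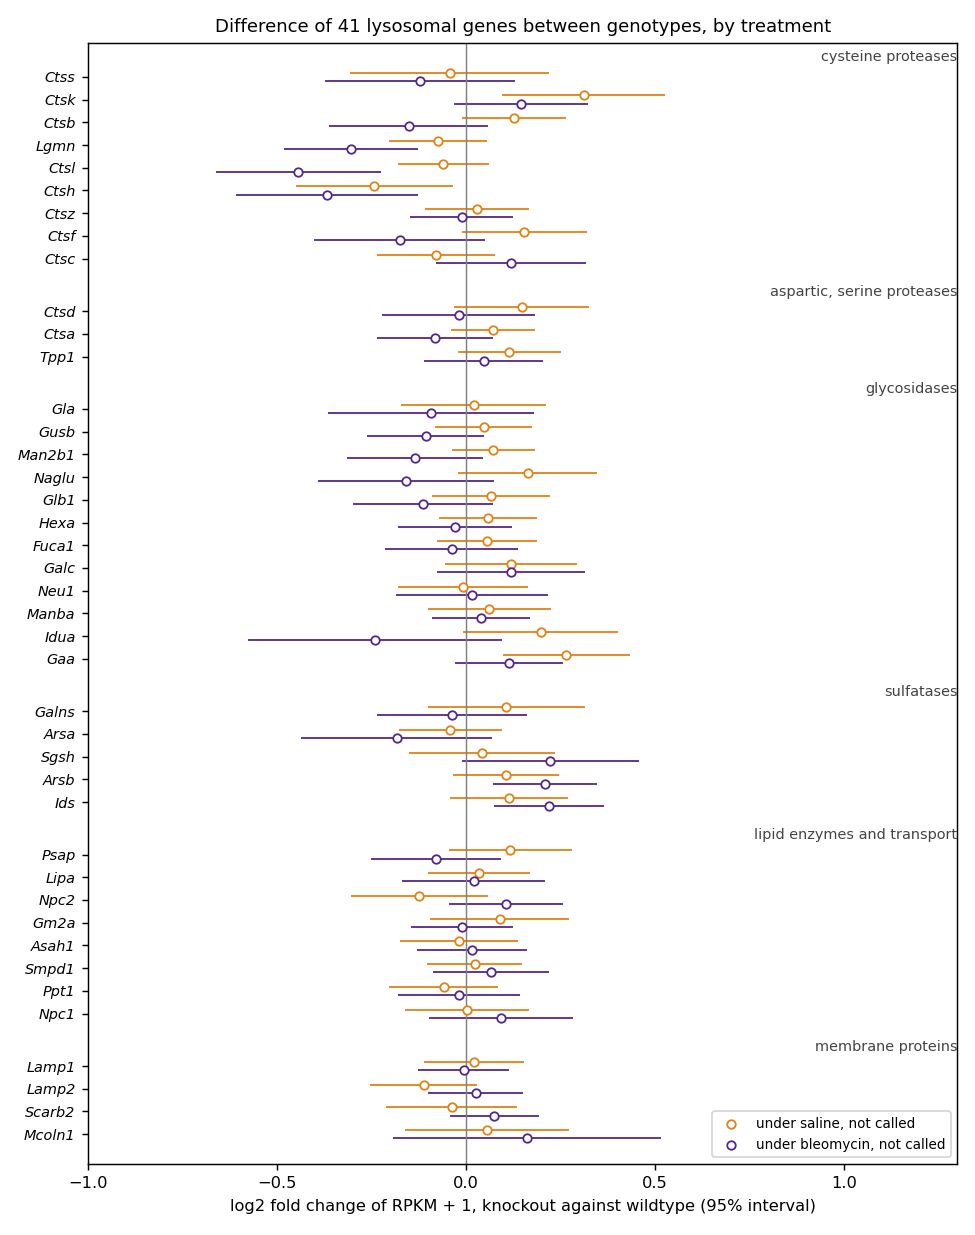
Difference of each of the 41 genes between IL-31RA knockout and wildtype lungs under saline (orange) and under bleomycin (purple), as the log2 fold change of RPKM + 1 with its 95% interval. None passed an adjusted p of 0.05, and the largest difference under bleomycin was that of Ctsl (-0.44).

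Under saline (KO-Sal against WT-Sal), limma called 0 of the 41 genes (0.0488% of all genes), and limma-voom also called 0. At an unadjusted p under 0.05 there were 3 (16.2% of all genes), Gaa and Ctsk higher and Ctsh lower in knockout lungs. Gaa read 19.6, 21.4, 18.1 and 23.2 RPKM in WT-Sal and 25.7, 23.5, 25.9 and 24.2 RPKM in KO-Sal (log2 fold change 0.27, SE 0.076, adjusted p = 0.126). It was 1 of 2 genes with every knockout library above every wildtype library, the other being Psap (6.24% of all genes; no gene had the reverse, 3.42% of all genes). Ctsk, at 16.1, 14.1, 17.3 and 13.4 RPKM in WT-Sal and 20.4, 17.5, 21.7 and 16.97 RPKM in KO-Sal, overlapped (log2 fold change 0.31, SE 0.10, adjusted p = 0.153). Ctsh read 219.8, 177, 196 and 184 RPKM and 152, 193, 158 and 154 RPKM (log2 fold change -0.24, SE 0.094, adjusted p = 0.231), and Idua 3.62, 4.79, 4.12 and 5.04 RPKM and 5.22, 4.97, 5.48 and 4.95 RPKM (log2 fold change 0.20, SE 0.092, adjusted p = 0.324). The interval of the difference lay within 1.5-fold on the RPKM + 1 scale for all 41 genes.

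Whether the bleomycin response itself differed between genotypes was tested as an interaction over all 16 libraries, and 0 of the 41 genes were called by limma or by limma-voom (0.22% of all genes were called by limma). At an unadjusted p under 0.05 there were 8 (11% of all genes): the log2 fold change in knockout lungs was below that in wildtype lungs for Ctsl, Ctsf, Ctsb, Idua, Naglu, Lgmn and Man2b1 and above it for Npc2. The difference of the changes was -0.38 for Ctsl (95% interval -0.62 to -0.15, adjusted p = 0.245), -0.33 for Ctsf (-0.60 to -0.064, adjusted p = 0.366) and -0.28 for Ctsb (-0.52 to -0.036, adjusted p = 0.401). Of these, Ctsf read 10.7, 10.3, 11.5 and 9.30 RPKM in KO-Sal and 9.63, 8.87, 8.20 and 10.9 RPKM in KO-Bleo, and Ctsb 95.1, 106, 98.8 and 91.4 and 281, 214, 281 and 275 RPKM. The lowest KO-Bleo value of Ctsf came from the shallow replicate 15 (20 reads). Its highest WT-Bleo value, 11.7 RPKM, came from the shallow replicate 6 (14 reads). Idua, at 4.43, 4.76, 3.29 and 4.86 RPKM in KO-Bleo, lay below all 4 KO-Sal libraries (log2 fold change -0.22, SE 0.11, adjusted p = 0.173), whereas its wildtype groups overlapped, and its difference of changes was -0.44 (-0.82 to -0.055, adjusted p = 0.402). For Idua, 3.29 RPKM came from the shallow replicate 15 (18 reads) and the highest WT-Bleo value, 7.10 RPKM, from the shallow replicate 6 (19 reads). Over the alternative fits described below, the difference of changes ran from -0.52 to -0.21 for Idua and from -0.40 to -0.19 for Ctsf. The median difference of changes over the 41 genes was -0.087 (-0.024 over all genes), and 37 intervals lay within 1.5-fold on the RPKM + 1 scale.

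Most general and monocyte-derived macrophage markers rose with bleomycin, as most of the lysosomal genes did, whereas more alveolar macrophage markers fell than rose. Beside the counts of these and the later marker lists, 18.6% of all genes were called higher and 12.3% lower in wildtype lungs. The shares in knockout lungs were 13.2% and 10.4%. In whole-lung RNA, more cells of a type and more RNA per cell cannot be told apart, and the part of these cells in the results above was not tested. Of 12 general macrophage markers, 10 were higher with bleomycin in each genotype (median 0.83 in wildtype and 0.67 in knockout lungs). Msr1, a scavenger receptor, rose from 1.19 ± 0.201 to 16.5 ± 1.304 RPKM (log2 fold change 2.997, adjusted p = 1.09e-07), and Fcgr1 (1.60, adjusted p = 3.37e-06), Adgre1 (1.24, adjusted p = 2.58e-05) and Aif1 (1.19, adjusted p = 4.04e-05) rose as well. Summed over the 12, WT-Sal libraries held 4020.0 to 4576 RPKM, WT-Bleo libraries 4333 to 5077, KO-Sal libraries 3961 to 4707 and KO-Bleo libraries 5556 to 6474, and none of the 12 was at 0 in any library. The WT-Sal and WT-Bleo sums thus overlapped. The KO-Bleo sums lay above the WT-Bleo sums, yet the median change of the 12 genes in KO-Bleo against WT-Bleo was -0.13, with 0 called. A sum follows the most abundant genes of a list and need not move as its median does.

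Among 18 genes that mark monocyte-derived or lipid-associated macrophages, 15 rose in wildtype lungs (median 1.60) and 14 rose and 1 fell in knockout lungs (median 1.17). Spp1, osteopontin, went from 47.4 ± 7.74 to 1026 ± 81.6 RPKM (log2 fold change 4.42, adjusted p = 2.85e-08), and Mmp12 (4.59, adjusted p = 2.85e-08), C1qa (2.60, adjusted p = 2.17e-07) and Trem2 (3.57, adjusted p = 2.93e-07) rose with it. Their sum ran from 836 to 907 RPKM over the WT-Sal libraries, from 2762 to 3169 over WT-Bleo, from 787 to 940.1 over KO-Sal and from 2033 to 3028 over KO-Bleo, and none of the 18 was at 0 in any library. The sum of the 41 lysosomal genes was 2626 to 2828, 5682 to 5987, 2572 to 2857 and 4944 to 6054 RPKM in the same order of groups. KO-Bleo replicate 14 was lowest of its group in both sums, and it was the lowest KO-Bleo library for 28 of the 41 genes and for 25 of the 30 called higher in both genotypes. Without that library 30 genes were called higher in KO-Bleo against KO-Sal, with a median change of 0.57. KO-Sal replicate 12 was lowest of its group for 25 of the 41. Both libraries also had the lowest RPKM of their groups when all genes were summed. That sum was 398504 for KO-Bleo replicate 14 (the others 406612 to 422698) and 392139 for KO-Sal replicate 12 (the others 403551 to 432273). The share of all genes for which these libraries were lowest is not given here.

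**Figure D4:**
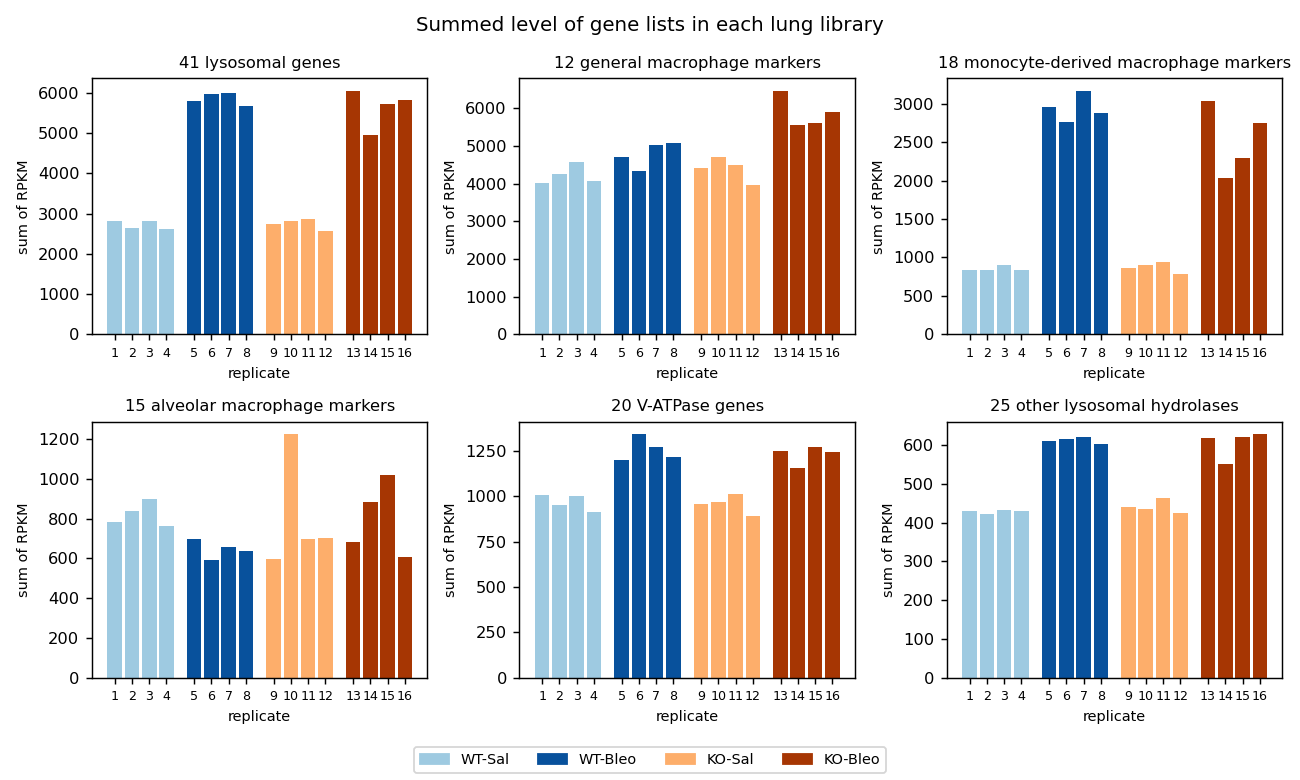
Summed RPKM per lung library of the 41 lysosomal genes and of 5 other lists, with bars for replicates 1 to 16 coloured by group. The lysosomal sum is 2626 to 2828 RPKM in WT-Sal and 5682 to 5987 RPKM in WT-Bleo, and the sum of monocyte-derived macrophage markers is 836 to 907 and 2762 to 3169 RPKM in the same groups; KO-Bleo replicate 14 has the shortest KO-Bleo bar in both.

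Of 15 markers of resident alveolar macrophages, 2 were higher and 8 lower with bleomycin in wildtype lungs, and 3 were higher and 6 lower in knockout lungs. Fabp1 fell (log2 fold change -3.74, adjusted p = 1.2e-06), as did Krt79 (-2.97, adjusted p = 3.79e-06), Car4 (-0.83, adjusted p = 2.31e-05) and Ear1 (-2.50, adjusted p = 0.000245), and Fabp1 and Krt79 were at 0 in at least 1 library. Per library the list summed to between 761 and 899 RPKM for WT-Sal, 592 and 697 for WT-Bleo, 599 and 1226 for KO-Sal, and 608 and 1021 for KO-Bleo. The highest KO-Sal sum was that of replicate 10, the other KO-Sal libraries being at 599, 695 and 701 RPKM, and the same replicate had the highest sum of adipocyte markers (532 RPKM). Of 6 osteoclast markers, a list that shares Acp5 and Atp6v0d2 with the lysosomal lists, 3 rose in each genotype, and Ocstamp was at 0 in at least 1 library. They summed to between 40.2 and 50.1 RPKM for WT-Sal, 102.6 and 109.6 for WT-Bleo, 38.4 and 53.9 for KO-Sal, and 89.9 and 109.9 for KO-Bleo.

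In none of the remaining marker lists did most members rise. Of 10 markers of alveolar type 2 cells, 8 fell in wildtype lungs, among them Sftpa1 (log2 fold change -1.16, adjusted p = 6.24e-06), Slc34a2, Sftpc and Lyz1, whereas 2 rose and 3 fell in knockout lungs, and 4 were called higher in knockout than in wildtype lungs under bleomycin and 3 in the interaction. The part of these cells in the levels of Ctsh was not tested. Their sum lay between 21510 and 25120 RPKM for WT-Sal libraries, 12670 and 14210 for WT-Bleo, 19280 and 22840 for KO-Sal, and 18010 and 19790 for KO-Bleo. Higher and lower counts in wildtype lungs were 2 and 4 of 8 for alveolar type 1 cells (Pdpn up, Hopx down), 3 and 3 of 9 for fibroblasts (Col1a2, Col1a1 and Col3a1 up), 1 and 8 of 9 for endothelial cells (Ednrb and Tek down), 0 and 5 of 7 for T cells, 0 and 3 of 7 for B and plasma cells, and 1 and 0 of 8 for neutrophils. They were 0 and 2 of 8 for adipocytes, 0 and 1 of 7 for cardiac muscle and 0 and 3 of 3 for erythroid cells. In knockout lungs the counts were, in the same order, 1 and 4, 4 and 2, 0 and 7, 0 and 0, 0 and 1, 1 and 0, 0 and 0, 0 and 6, and 0 and 2. The adipocyte sum of KO-Sal replicate 10 was above the 34.9 to 89.7 RPKM of every other library. Of the alveolar macrophage list, Fabp4, which adipocytes also express and which was singled out after its values were seen, ran from 54.0 to 492 RPKM over the KO-Sal libraries.

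Of the rest of the lysosome, most listed hydrolases, membrane proteins and V-ATPase subunits rose in wildtype lungs, whereas most genes of the other lists did not. For comparison with the counts of every list below, 18.6% of all genes were called higher and 12.3% lower in wildtype lungs. In knockout lungs these shares were 13.2% and 10.4%. Of 25 other lysosomal hydrolases, 15 rose and 1 fell in wildtype lungs (median 0.34) and 12 rose in knockout lungs. Pld3, which degrades nucleic acid in lysosomes, rose from 25.1 ± 0.629 to 65.98 ± 4.91 RPKM (log2 fold change 1.36, adjusted p = 7.32e-07), and Acp5, tartrate-resistant acid phosphatase, rose from 10.52 ± 1.29 to 34.7 ± 3.28 RPKM (log2 fold change 1.63, adjusted p = 3.52e-06). The one that fell was Arsk, another sulfatase (log2 fold change -0.44, adjusted p = 0.00987), which was singled out after its value was seen.

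Of 25 other membrane proteins and transporters, 15 rose and 2 fell in wildtype lungs and 11 rose and 2 fell in knockout lungs. Gpnmb, a glycoprotein of phagocytes, went from 4.81 ± 0.563 to 69.5 ± 7.68 RPKM (log2 fold change 3.60, adjusted p = 3.42e-08), more than any of the 41 genes, and the macrophage protein Cd68 (1.85, adjusted p = 1.02e-07), the tetraspanin Cd63 (1.02, adjusted p = 2.33e-06) and Laptm5 (0.80, adjusted p = 1.81e-05) rose too. Lamp3, named here after its values were seen, belongs to the lamellar bodies of alveolar type 2 cells. It fell in wildtype lungs (log2 fold change -0.84, adjusted p = 4.17e-05), stood at 0.090, adjusted p = 0.519 in knockout lungs, and was the list's only gene called between genotypes under bleomycin (0.69, adjusted p = 0.0184) and in the interaction (0.93, adjusted p = 0.0118), unlike Lamp1 and Lamp2.

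Of 20 subunits of the V-ATPase, the proton pump that acidifies lysosomes, 15 rose and 1 fell in wildtype lungs (median 0.36) and 14 rose and 2 fell in knockout lungs. Atp6v0d2, an isoform of macrophages and osteoclasts, rose from 26.9 ± 3.19 to 62.7 ± 2.90 RPKM (log2 fold change 1.20, adjusted p = 8.87e-06), Atp6v1b2 (0.42, adjusted p = 0.000264) and Tcirg1 (0.68, adjusted p = 0.000386) rose, and Atp6v1c2 fell from 34.4 ± 2.04 to 17.4 ± 1.36 RPKM (log2 fold change -0.95, adjusted p = 1.38e-05). The pump as a list thus moved by less than the proteases. Of 14 genes of enzyme sorting and modification, 5 rose and 0 fell in wildtype lungs and 4 rose and 1 fell in knockout lungs. These included Grn, progranulin (0.93, adjusted p = 4.71e-05), Igf2r, the large mannose phosphate receptor (0.71, adjusted p = 0.000246), Gnptab, which makes the mannose phosphate tag (0.37, adjusted p = 0.00176), and Sumf1, which activates sulfatases (0.49, adjusted p = 0.0034).

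Of 16 genes for MiT transcription factors and for mTORC1 regulation at the lysosome, 6 rose (18.6% of all genes) and 1 fell (12.3%) in wildtype lungs. In knockout lungs 4 rose (13.2% of all genes). Tfe3 rose in wildtype lungs from 8.05 ± 0.844 to 10.9 ± 0.467 RPKM (log2 fold change 0.40, adjusted p = 0.00468) and was at 0.11, adjusted p = 0.339 in knockout lungs, with no call for the difference of these changes (adjusted p = 0.36). Tfec, a relative found mainly in macrophages, rose in both (0.66, adjusted p = 0.00641 in wildtype lungs), as did Rragc (0.29, adjusted p = 0.00489), and Lamtor4 rose in wildtype lungs (0.37, adjusted p = 0.00162). Tfeb, added after its values were seen, was at 0.18, adjusted p = 0.15 in wildtype lungs and at -0.10, adjusted p = 0.489 in knockout lungs. Of 6 listed cathepsin inhibitors, 2 rose in each genotype. Cstb, the cytosolic cystatin B, rose from 60.9 ± 4.98 to 148 ± 15.2 RPKM (log2 fold change 1.26, adjusted p = 6.69e-06), and Serpinb6a rose in wildtype lungs (0.22, adjusted p = 0.0319). Secreted cystatin C (Cst3) was at 530.2 ± 69.6 RPKM in WT-Sal and 485 ± 53.3 RPKM in WT-Bleo, which was not called (log2 fold change -0.13, adjusted p = 0.409), and Cst6 was at no more than 0.108 RPKM in every library. Between genotypes, no gene of these further lists or of the marker lists was called under saline, and only Lamp3 and 4 markers of alveolar type 2 cells were called under bleomycin.

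Set beside the promoter motifs shown above, the E-box was in 8 of the 26 raised genes with a promoter entry and in 5 of the 10 others. The CLEAR core was in 7 of the 26 and 3 of the 10, and the M-box in 5 and 1. The median wildtype change was 0.80 for the 13 genes with an E-box and 0.58 for those without. It was 0.83 and 0.54 for genes with and without the CLEAR core, and 0.70 and 0.59 for the M-box. Ctsd, Ctsa and Mcoln1 each held a pair of CLEAR cores. Ctsd rose 4.25-fold and Ctsa 1.86-fold, whereas Mcoln1 was not called (log2 fold change 0.087, adjusted p = 0.724). Arsa, with one 18 bases before its start, did not change detectably (-0.16 to 0.22, 95% interval of the log2 fold change). Sgsh also held the CLEAR core and was not called. These are descriptions of letters in 300-base windows, with no test of binding.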

How the data were processed

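Lung RNA was sequenced on an Illumina HiSeq in 16 libraries, 4 per group, grouped by genotype and treatment as the labels give them. The authors deposited 1 table of 16380 genes with 1 column per library, and 0 of its columns of values were left unused. The values were read as RPKM, computed by the authors, since neither the table nor the notes name the unit and the values of 99.91% of genes (16366) came out as whole reads (relative tolerance 6e-08), each multiplied by 1 constant per gene and 1 per library. The submitters' processing notes name bcl2fastq, CASAVA 1.8, TopHat, DESeq and build mm10, whereas annotation and strand setting were not given in the sources used here. Reads shared by overlapping or near-identical genes could therefore be assigned in ways not known here.

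Each comparison was fitted with limma 3.58.1 (trended and robust, R 4.3.3) on log2(RPKM + 1) of all genes over its 2 groups, and the interaction over all 16 libraries, with Benjamini-Hochberg adjustment over all genes and a call at an adjusted p under 0.05. Tables were handled in Python 3.11.15 (numpy 2.4.6, pandas 2.3.3, scipy 1.17.1), and the fits were tested on simulated data. Recovered totals, 604134 to 32153698 reads per library, limit the precision of low genes in WT-Bleo replicate 6 and KO-Bleo replicate 15. The alternatives were pseudocounts of 0.1 and 5, a minimum mean of 1 RPKM, limma-voom on recovered reads, a spread shared by all 16 libraries, quality weights per library, median-of-ratios scaling, and fits without both shallow libraries or without each library in turn.

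The 41 genes and the other gene and marker lists were chosen with earlier results of these data known. Values in every library are given for the 6 genes with the largest and the 4 with the lowest change in WT-Bleo against WT-Sal and for the 4 with the smallest p in each other comparison, and up to 4 genes with the smallest p in WT-Bleo against WT-Sal are named from each other list, except for genes whose values are not reported here. Promoters are RefSeq sequences of GRCm38.p6.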

Additional observations from a re-analysis of the deposited data

Results flagged for a closer look

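In a group of 4 libraries, a library was singled out where its gap to the nearest other library, as a share of the range of the group, exceeded Dixon's 95% critical value. This held for 9 of the 164 groups (41 genes in 4 groups, 5.49%), and chance gives about 1 in 20.

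In KO-Bleo, replicate 14 had the lowest Ctsb (214 RPKM, the others 275 to 281) and the lowest Ctsa (48.8 RPKM, the others 56.2 to 57.6). In WT-Bleo, the shallow replicate 6 had the highest Idua (7.10 RPKM from 19 reads, the others 4.58 to 4.96) and the highest Arsa (12.8 RPKM from 27 reads, the others 10.02 to 10.13). Both rest on few reads.

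Among saline libraries, Ctsh was high in KO-Sal replicate 10 (193 RPKM, the others 152 to 158), Gm2a was high in KO-Sal replicate 11 (29.8 RPKM, the others 25.4 to 25.8) and Manba was low in KO-Sal replicate 12 (11.03 RPKM, the others 13.3 to 13.6). WT-Sal replicate 3 had the lowest Gusb (24.1 RPKM, the others 24.86 to 24.98) and the lowest Npc1 (25.5 RPKM, the others 29.4 to 29.8).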

How the results depend on the processing

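No paired analysis was made, since replicate numbers run on over all 16 libraries and the sources used here do not give the litter of a library. Over the alternatives, 27 to 30 of the 41 genes were called higher in WT-Bleo against WT-Sal and 29 to 31 in KO-Bleo against KO-Sal, with medians of 0.53 to 0.66 and 0.44 to 0.60. The lowest of the latter, 0.44, came with a pseudocount of 5. In WT-Bleo against WT-Sal, 2 genes were called lower with limma-voom, with quality weights and without both shallow libraries, the added gene being Npc1, and 0 to 2 when 1 library was left out. In KO-Bleo against WT-Bleo, 2 were called lower with limma-voom, 2 with a shared spread and 1 with quality weights (Ctsl and Lgmn, described above), and the causes were not tested. No gene was called between genotypes under saline or in the interaction under any alternative, and no called value changed sign. Under median-of-ratios scaling, which shifted the median of all genes by at most 0.034 in size, Asah1, Smpd1 and Scarb2 were not called in WT-Bleo against WT-Sal. Of the genes called higher, 27 of 30 in wildtype and 29 of 31 in knockout lungs kept their call under every alternative. Depth limits the low genes in WT-Bleo replicate 6 most, where Sgsh and Mcoln1 had 12 reads, Ctsf 14, Galns 17 and Idua 19.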
